A study of Mus musculus with 6 samples.

Results

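Nr1d1, Nr1d2, Rora, Dbp, Tef, Hlf and Nfil3 were followed in vascular endothelial cells (VECs) sorted from P7.5 mouse retinas. Nfil3 encodes the repressor NFIL3, and the others encode transcription factors of the REV-ERB, ROR and PAR-bZIP families. The 7 genes were chosen by name from the 55487 in the table, and all 7 had enough reads to be tested. The 3 Bmal1 FL/FL;tdTomato FL/+;Pdgf-icreER animals (Bmal1;CKO) were compared with 3 tdTomato FL/+;Pdgf-icreER animals (control). The inducible Cre is driven by the Pdgf promoter in endothelium. All animals carried it with the reporter and were given tamoxifen between P0.5 and P2.5, and the genotypes differed by the floxed Bmal1 alleles. Retinas were collected at noon, so all levels below are those of a single time of day. Cells were taken when they carried GFP, which comes with the Pdgf-icreER transgene, and tdTomato, which appears after recombination. Total RNA was amplified before the libraries were made, and each library had between 71145068 and 104017800 reads on genes. Values are normalized counts, which are the reads on a gene divided by the size factor of the library. Libraries are numbered as the columns of the table, controls being 1 to 3 and Bmal1;CKO animals 4 to 6. Nothing in the labels says whether animals shared a litter or gives their sex, and p-values measure the spread between these libraries. Xist, an RNA of female cells, had 6.15, 2.78 and 4.29 normalized counts in control and 439, 2492 and 773 in Bmal1;CKO. In the comparisons below, a difference in sex therefore cannot be told apart from that in the floxed Bmal1 alleles.

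These genes form the second loop and the output arm of the circadian clock. BMAL1 and CLOCK bind E-boxes and switch on the genes of the REV-ERB proteins and of DBP. REV-ERB proteins repress, and ROR proteins activate, genes that carry a ROR element, among them Bmal1 itself and Nfil3. The PAR-bZIP proteins DBP, TEF and HLF activate genes that carry a D-box, and NFIL3 represses through the same site, so that the pair of opposing factors sets the timing of genes such as the Per genes.

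Markers of the labelled cell type and of other retinal cells were both present in the sorted cells. All 14 endothelial markers had at least 10 reads in every library, with a summed level of 220259 to 411284 normalized counts in control and 134881 to 284994 in Bmal1;CKO. All 9 markers of microglia and macrophages also had at least 10 reads in every library, and their sum was 6.03 to 10.3 times the endothelial sum in control and 7.34 to 20.9 times in Bmal1;CKO. The 10 rod markers also had at least 10 reads in every library. They summed to 703468 to 783381 normalized counts in control and 488461 to 839439 in Bmal1;CKO, above the endothelial sum in each library. Muller glia markers had the highest sums, 4045861 to 16665661 in control and 7381147 to 13567231 in Bmal1;CKO. The lists differ in the number and length of their genes, and the sums were not scaled for this. They depend on the genes listed and do not give the shares of cells. In none of the 11 marker lists did the summed levels of the groups separate. In such a mixture, fewer cells of a type and less RNA per cell cannot be told apart, and the part of other cell types in the values below was not tested. Control library 1 stood apart in several lists, with the lowest sums of cone (5465), astrocyte (424) and pericyte markers (2637) of the 6 libraries and the highest sums of endothelial and microglial markers. The floxed gene itself, listed as Arntl, had 1700, 3489 and 2928 normalized counts in control and 1779, 2747 and 2415 in Bmal1;CKO, so the groups overlapped (log2 fold change -0.19, adjusted p = 0.924 by limma-trend). Without control library 2 its log2 fold change turned to 0.029, with an adjusted p of 0.993 by limma-trend. The table has 1 value per gene, so the floxed exon could not be checked apart. By droplet digital PCR on sorted endothelial cells of these genotypes, the paper reports a significant fall of Bmal1 transcript in the mutant. It takes this as an effective deletion.

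For 7 of 7 genes a promoter window was found in the RefSeq table for GRCm38.p6, with 250 bases before and 50 after the start of transcription, and Tef had 2 windows. Both strands were searched for the E-box CACGTG, the D-box TTATGTAA or TTACGTAA, and the core of the ROR element, AGGTCA. The E-box was found in 2 of the 8 windows, both of Tef, against 7.17% of all 32544 windows. The ROR element core was found in 2 windows, those of Nr1d2 and Nfil3, against 16.2% of all windows, and the D-box in 0, against 1.05%. These matches say only which letters lie in these short windows. All 4 matches are shown, since these motifs are the ones named above for BMAL1 and for the REV-ERB and ROR proteins, and no binding was measured. Capitals mark the motif, and each sequence runs 5′ to 3′ on the strand of its gene.
Tef, first window, 127 bases before the start, inside an annotated Tef exon, chr15:81802534-81802563, forward strand: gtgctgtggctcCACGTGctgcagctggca
Tef, second window, 138 bases before the start, outside the annotated Tef exons, chr15:81811249-81811308, forward strand: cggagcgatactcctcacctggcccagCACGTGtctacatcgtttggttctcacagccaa
Nr1d2, 77 bases before the start, upstream of the gene, chr14:18239151-18239210, reverse strand: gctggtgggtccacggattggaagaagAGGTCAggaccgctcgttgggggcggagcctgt
Nfil3, 12 bases before the start, inside an annotated Nfil3 exon with the core on the other strand, chr13:52981040-52981063, reverse strand: ggcgctcggaacTGACCTactaac

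Levels were compared between the genes per kilobase of annotated exon. Nfil3 was the most abundant, with 2603 ± 672 normalized counts per kilobase (SD over 6 libraries), and in each library it lay above all the others. Dbp followed with 578 ± 92.4, Tef with 361 ± 145, Rora with 291 ± 87.0 and Nr1d1 with 285 ± 174. Nr1d2 had 111 ± 63.6 and Hlf 49.8 ± 34.2 normalized counts per kilobase. Apart from Nfil3 and Dbp, neighbours in this order had ranges over libraries that overlapped. By group means the place of Nr1d1 differed between the genotypes. Its mean per kilobase of 185 ± 173 in control (SD, n = 3) lay below that of Rora at 338 ± 72.8. Its mean of 384 ± 128 in Bmal1;CKO lay above that of Rora at 243 ± 83.0. In Bmal1;CKO library 5, however, Nr1d1 at 260 lay below Rora at 339. The control mean of Nr1d1 was lowered by control library 1, at 5.60 per kilobase. Rorb, a paralog of Rora, was looked up after its values had been seen. It had 807 ± 215 normalized counts per kilobase (SD over 6 libraries), so Rora was not the most abundant ROR transcript in these libraries. Which cell types of the mixture the Rorb and Rora transcripts came from was not tested.

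**Figure D1:**
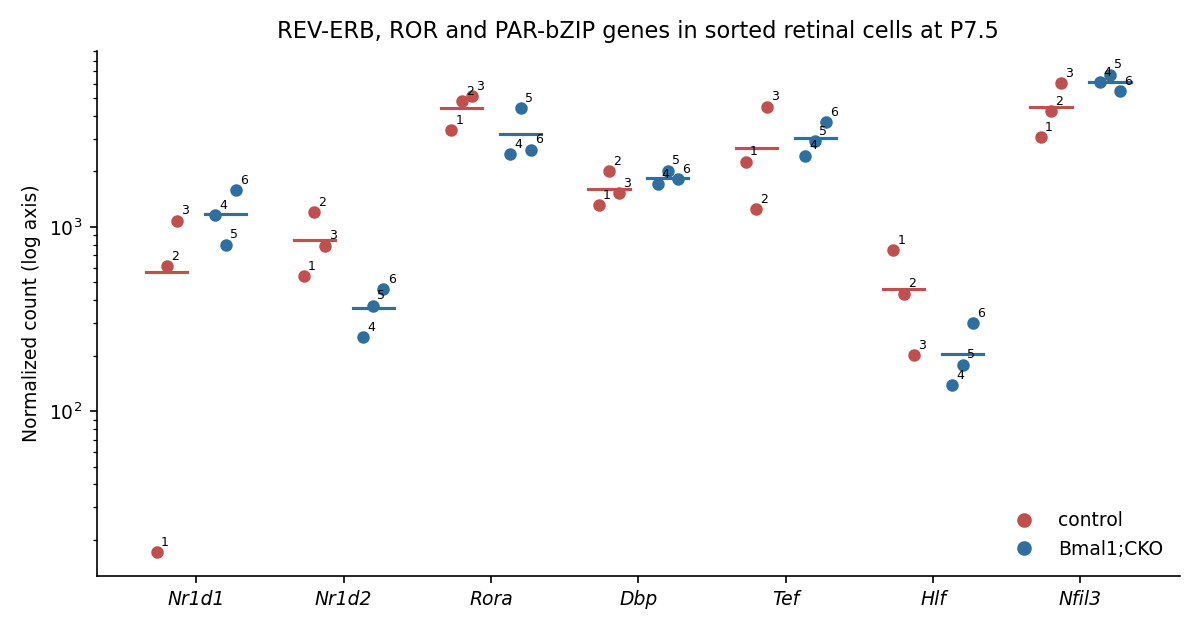
Normalized counts (log axis) of the 7 genes in each library, with control in red, Bmal1;CKO in blue, library numbers beside the points and arithmetic group means as bars. The Nr1d2 points of Bmal1;CKO all lie below those of control, and the Nr1d1 point of control library 1 lies far below the rest.

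Next, the genotypes were compared to ask whether these clock output genes differed in level in animals with floxed Bmal1. By limma-trend on log2(normalized count + 1), 0 of the 7 genes reached an FDR of 0.05, with adjusted p between 0.883 and 0.902, and 1 of 7, Nr1d2, was below 0.05 before adjustment. Among all 20459 genes tested, 4.92% were, with 1.75% lower and 3.17% higher in Bmal1;CKO. The same fit called 0 genes at that FDR (0% of those tested), with 1007 at an unadjusted p under 0.05. edgeR with TMM scaling also called 0, with 777 at an unadjusted p under 0.05, and DESeq2 called 67, none of them among the 7 genes. By their log2 fold changes 4 of the 7 were higher in Bmal1;CKO and 3 were lower. Their median was 0.21, where the median of all genes tested was 0.11. Without control library 1 these medians were 0.079 and 0.0016, and the median of all genes was -0.03 by edgeR with TMM scaling. Nr1d2 was the only 1 of the 7 whose groups did not overlap, in the lower direction, as did 4.54% of all genes tested, while 11.2% did so in either direction.

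Among the repressors, Nr1d2 (ENSMUSG00000021775, reverse strand of chromosome 14 of GRCm38, 18239127 down to 18204054) encodes REV-ERBβ. It had 543, 1200 and 790.2 normalized counts in control libraries 1 to 3 and 253, 374 and 457 in Bmal1;CKO libraries 4 to 6. Each Bmal1;CKO library lay below each control library (exact permutation test, two-sided, p = 0.1, which is the lowest possible with 3 libraries a group). The group means were 844 ± 332 in control and 361 ± 103 in Bmal1;CKO (SD, n = 3 each), and the log2 fold change was -1.19 (standard error 0.50, 95% interval -2.34 to -0.03). Its unadjusted p was 0.0451 and its adjusted p 0.883 by limma-trend. As the groups did not overlap, leaving out 1 library could not change the direction. The log2 fold change then lay between -1.47 without control library 1 and -0.90 without control library 2. Direction also held in the other 10 alternatives, which refit the same 6 libraries. The unadjusted p stayed under 0.05 in 10 of all 16 alternatives. It was 0.0102 without control library 1, in a fit in which 8.65% of all genes were under 0.05, but 0.0524 with a pseudocount of 10 and from 0.0584 to 0.151 when any other single library was left out. No annotated exon of another gene overlaps those of Nr1d2.

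Nr1d1 (ENSMUSG00000020889, reverse strand of chromosome 11, 98775333 down to 98767932), which encodes REV-ERBα, went the other way in its means. Its normalized counts were 17.2, 613 and 1081 in control and 1159, 799.8 and 1585 in Bmal1;CKO. Control library 1 alone was low, with 14 reads, and control library 3 lay above Bmal1;CKO library 5, so the groups overlapped. Counting error alone gives a 95% Poisson interval of 9.42 to 28.9 normalized counts for those 14 reads. The log2 fold change of 2.31 (standard error 1.41, 95% interval -0.97 to 5.58, adjusted p = 0.883 by limma-trend) rested on that library. Without control library 1 it was 0.48 (95% interval -0.50 to 1.46), and with all libraries it was 1.04 by edgeR with TMM scaling. Thra, the thyroid hormone receptor gene on the opposite strand, shares 263 bases of exon with Nr1d1, or 8.55% of its exons. Thra had 4738 normalized counts in control library 1 and 4462 to 6601 over the 6 libraries, so the low value of Nr1d1 was not shared by its neighbour.

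Set against each other within a library, the REV-ERB transcripts separated the genotypes. The ratio of Nr1d1 to Nr1d2 was 0.0317, 0.511 and 1.37 in control and 4.58, 2.14 and 3.47 in Bmal1;CKO. Nr1d2 was thus the more abundant in counts in control libraries 1 and 2, and Nr1d1 in the remaining 4 libraries. On the log2 scale the mean ratio was 3.53 higher in Bmal1;CKO, and 1.95 higher without control library 1. This was the only 1 of 6 ratios examined in which the groups did not overlap, it takes up the separation already seen for Nr1d2 alone, and it was not tested.

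**Figure D2:**
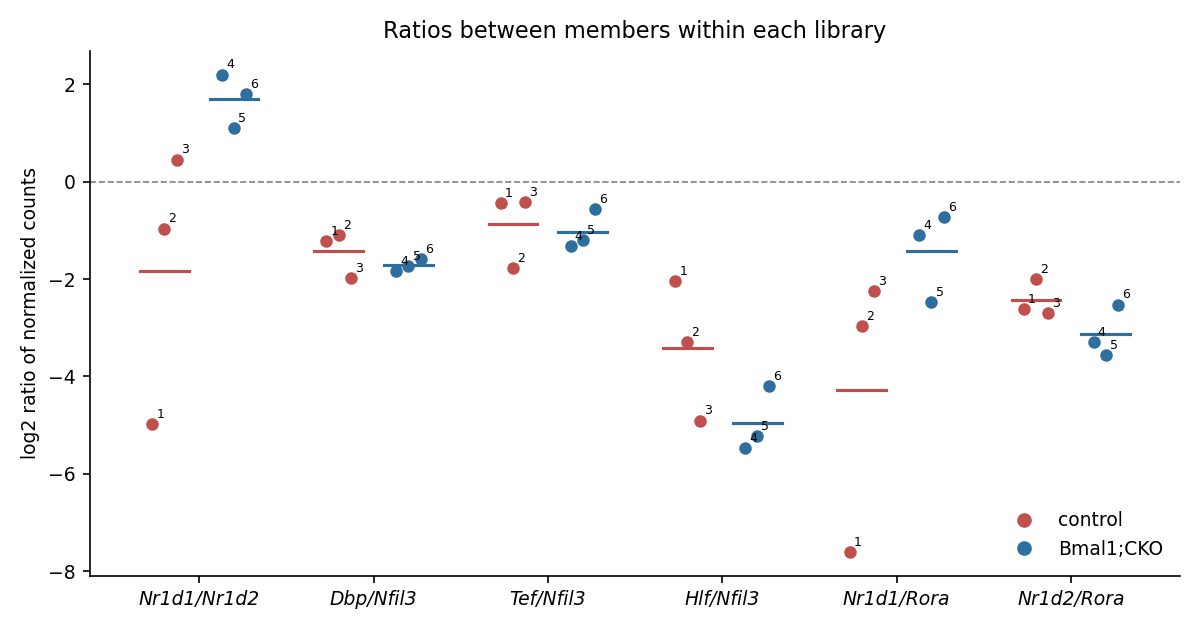
log2 ratios of normalized counts between pairs of the genes within each library, with control in red, Bmal1;CKO in blue, library numbers beside the points and group means as bars. Only for Nr1d1 over Nr1d2 do the 3 Bmal1;CKO points (1.10 to 2.19) lie above the 3 control points (-4.98 to 0.45).

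The activator Rora (ENSMUSG00000032238, forward strand of chromosome 9, 68653786 to 69388246) competes with the REV-ERB proteins at the ROR element. It had 3337, 4805 and 5118 normalized counts in control and 2478, 4427 and 2630 in Bmal1;CKO. Bmal1;CKO library 5 lay above control library 1, and the other Bmal1;CKO libraries lay below all controls. Its log2 fold change was -0.50 (standard error 0.33, 95% interval -1.26 to 0.25, adjusted p = 0.883 by limma-trend), and the value was -0.77 without Bmal1;CKO library 5 and -0.35 without Bmal1;CKO library 4. Relative to Rora, Nr1d2 was lower in Bmal1;CKO by 0.69 on the log2 scale and Nr1d1 higher by 2.84, or by 1.17 without control library 1, and in both ratios the groups overlapped.

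Of the 3 PAR-bZIP activators, Dbp (ENSMUSG00000059824, forward strand of chromosome 7, 45705088 to 45710203) is a strongly rhythmic clock output gene in many tissues. With retinas collected only at noon, its rhythm could not be examined here. At that time it had 1315, 2001 and 1521 normalized counts in control and 1700.4, 2020.2 and 1821 in Bmal1;CKO. The log2 fold change of 0.21 (standard error 0.30, adjusted p = 0.902 by limma-trend) had a 95% interval of -0.48 to 0.91, so a fall of Dbp below 0.719 of the control level and a rise above 1.87-fold lay outside it. The value was 0.079 if control library 1 was left out and 0.38 if control library 2 was. Sphk2, a sphingosine kinase gene on the opposite strand, shares 539 bases of exon with Dbp, or 18.0% of the exons of Dbp. Sphk2 had 1971, 1682 and 3808 normalized counts in control and 5494, 4052 and 4986 in Bmal1;CKO (log2 fold change 1.04, unadjusted p = 0.0203, adjusted p = 0.883 by limma-trend). The strand setting of the counting is not given in the sources used here, and the part of Sphk2 reads in the values of Dbp was not tested.

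Tef (ENSMUSG00000022389, forward strand of chromosome 15, 81802421 to 81826863), the second PAR-bZIP activator and the gene with E-boxes in both windows shown above, varied more among controls than between the genotypes. Its normalized counts were 2259, 1244 and 4491 in control and 2436, 2918 and 3714 in Bmal1;CKO, and all 3 Bmal1;CKO libraries fell inside the control range. The log2 fold change was 0.35 (standard error 0.47, 95% interval -0.74 to 1.45, adjusted p = 0.899 by limma-trend). It was -0.10 without control library 2 and 0.83 without control library 3, so no direction can be given.

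Hlf (ENSMUSG00000003949, reverse strand of chromosome 11, 90390895 down to 90336536), the third activator and the least abundant of the 7 genes per kilobase, had 746, 434 and 201 normalized counts in control. In Bmal1;CKO it had 138, 179 and 299. The highest values were those of control libraries 1 and 2, while control library 3 lay within the Bmal1;CKO range. With means of 460.2 ± 273 and 205 ± 83.8 (SD, n = 3 each), the log2 fold change was -1.04 (standard error 0.69, 95% interval -2.64 to 0.55, adjusted p = 0.883 by limma-trend). Without control library 1 it was -0.60, and without control library 3 it was -1.54, so its size depended on which control was kept.

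Nfil3 (ENSMUSG00000056749, reverse strand of chromosome 13, 52981073 down to 52967209) encodes the repressor of the D-box, known also as E4BP4, which has its own roles in immune cells. It had 3061, 4268 and 6023 normalized counts in control and 6108, 6707 and 5473 in Bmal1;CKO. Control library 3 lay between Bmal1;CKO libraries 6 and 4, and the remaining controls lay below all Bmal1;CKO libraries. The log2 fold change was 0.50 (standard error 0.30, 95% interval -0.20 to 1.20, adjusted p = 0.883 by limma-trend). It was 0.26 without control library 1 and 0.75 without control library 3, where the unadjusted p was 0.0298, in a fit in which 11.9% of all genes had an unadjusted p under 0.05.

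**Figure D3:**
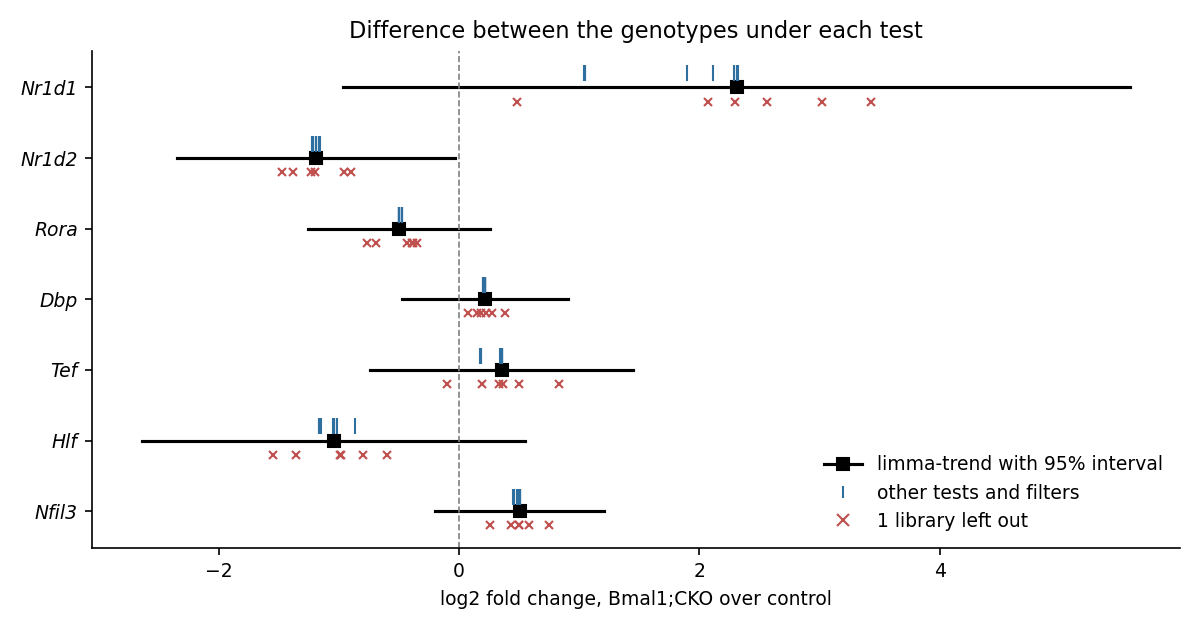
log2 fold changes of the 7 genes in Bmal1;CKO over control, with limma-trend estimates and 95% intervals in black, other tests and filters as blue ticks, and fits with 1 library left out as red crosses. Only the interval of Nr1d2 (-2.34 to -0.03) leaves out 0, and the crosses of Nr1d1 spread from 0.48 to 3.43.

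Hlf and Nfil3, an activator and the repressor of one site, ran in nearly opposite order over the 6 libraries. They were singled out as the most negative of the 21 pairs among the 7 genes (Pearson's r = -0.95 on the log2 scale over 6 libraries), while the most positive pair was Nr1d1 and Nfil3 (r = 0.88). Control library 1 had the highest Hlf and the lowest Nfil3, control library 2 came next in both, and Bmal1;CKO libraries 4 and 5 had the lowest Hlf and the highest Nfil3. The ratio of Hlf to Nfil3 was 0.244, 0.102 and 0.0333 in control and 0.0226, 0.0267 and 0.0546 in Bmal1;CKO. Control library 3 lay with the Bmal1;CKO libraries in this ratio, so the order did not follow the genotype alone. In contrast, the ratio of Dbp to Nfil3 stayed between 0.253 and 0.469 and that of Tef to Nfil3 between 0.292 and 0.746 over the 6 libraries.

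**Figure D4:**
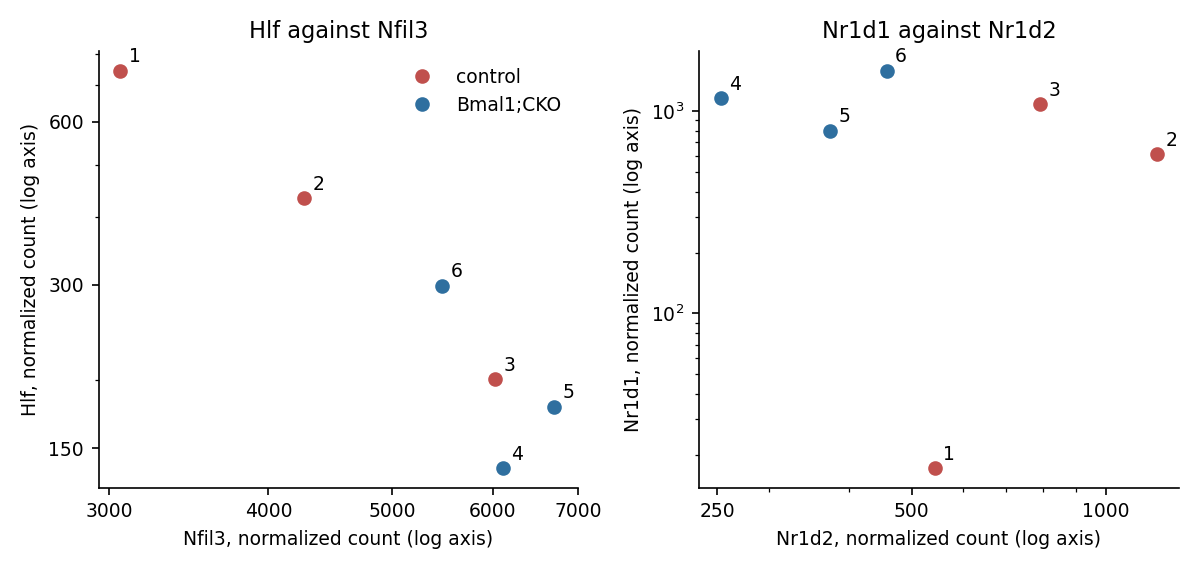
Hlf against Nfil3 and Nr1d1 against Nr1d2 in each library, in normalized counts on log axes, with control in red, Bmal1;CKO in blue and library numbers beside the points. Hlf falls from 746 to 138 as Nfil3 rises from 3061 to 6108, with control library 3 among the Bmal1;CKO points, whereas Nr1d2 and not Nr1d1 sets the genotypes apart in the other panel.

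The genes whose pattern was most like each of the 7 were found by Pearson's r on log2(normalized count + 1) over the 6 libraries, among 15610 tested genes with a mean of at least 100 normalized counts. With so many genes and only 6 libraries, high coefficients are to be found for any gene, so they are given as a description. Nr1d2 was most like Elmod2 (r = 0.995) and Colgalt2 (r = 0.995), both of which had their lowest level in Bmal1;CKO library 4 and their highest in control library 2. Nr1d1 was most like Ror1 (r = 0.999) and Chrnb4 (r = 0.998), which shared its low value in control library 1 at 3.69 and 4.92 normalized counts. Rora was most like Nyx (r = 0.981) and Lin52 (r = 0.978), and Dbp was most like Tmem91 (r = 0.993) and Cldn7 (r = 0.990). For Tef they were Cyb561a3 (r = 0.994) and Pik3ap1 (r = 0.993), for Hlf Parpbp (r = 0.992) and Rbm22 (r = 0.988), and for Nfil3 Utp14b (r = 0.997) and Xylt1 (r = 0.992). None of the 14 genes was one of the other clock output factors.

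The genes around these factors were examined as lists. Of all 20459 genes tested, 11570 were higher in Bmal1;CKO, but 10251 without control library 1 and 9797 by edgeR with TMM scaling, and the counts below are to be read beside these. Of 15 other core clock genes, 15 were tested, 11 higher and 4 lower in Bmal1;CKO (median log2 fold change 0.21, or 0.10 without control library 1), and 2 had an unadjusted p under 0.05. Csnk1e, a kinase of the PER proteins, had 9152, 6347 and 9304 normalized counts in control and 12246, 12170 and 12184 in Bmal1;CKO (log2 fold change 0.58, unadjusted p = 0.0440, adjusted p = 0.883 by limma-trend). Per2, a repressor of BMAL1 and CLOCK that is also a D-box gene, had 3.69, 0.928 and 55.0 in control, where libraries 1 and 2 held 3 and 1 reads, and 134, 87.2 and 174 in Bmal1;CKO (unadjusted p = 0.0227, adjusted p = 0.883 by limma-trend). In both genes each Bmal1;CKO library lay above each control library, as in 6.62% of all genes tested.

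Among 13 known REV-ERB and ROR targets, which include Nfil3, 5 of the core clock genes and the microglial marker Cx3cr1, 10 were higher and 3 lower (median log2 fold change 0.39, or 0.43 without control library 1). Nlrp3, the sensor of an inflammasome and a gene that REV-ERBα represses in macrophages, was the only 1 with an unadjusted p under 0.05. It had 22.1, 19.5 and 151 normalized counts in control and 326, 450.0 and 246 in Bmal1;CKO. Its log2 fold change was 3.00 (standard error 0.98, unadjusted p = 0.0163, adjusted p = 0.883 by limma-trend). Nlrp3 is a gene of microglia and macrophages, whose 9 markers summed to 1425457 to 4231904 normalized counts in control and 2090456 to 4158673 in Bmal1;CKO, and the part of these cells in its level was not tested.

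Of 9 D-box targets, 8 were tested, 7 higher and 1 lower (median log2 fold change 0.29, or 0.55 without control library 1). These targets include Nr1d1 and several of the core clock genes, so the lists are not separate. Per2, already counted among the core clock genes, was alone at an unadjusted p under 0.05 by limma-trend. Of 11 cofactors of the REV-ERB and ROR proteins, such as the corepressor genes Ncor1 and Hdac3, 9 were higher and 2 lower (median log2 fold change 0.30, or 0.22 without control library 1), and 0 passed an unadjusted 0.05. Nearest to it was the coactivator gene Ppargc1a (unadjusted p = 0.127, adjusted p = 0.883 by limma-trend), with 77.5, 105 and 358 normalized counts in control and 204, 444 and 556 in Bmal1;CKO. Of 5 genes that set the turnover of REV-ERB proteins, 3 were higher and 2 lower (median log2 fold change 0.08, or 0.02 without control library 1), and the smallest p was that of Gsk3b, the kinase that stabilises REV-ERBα (unadjusted p = 0.522, adjusted p = 0.906 by limma-trend). Gsk3b had 4748, 3713 and 2771 normalized counts in control and 2343, 3194 and 4139 in Bmal1;CKO. In each of these 5 lists, 0 genes reached an FDR of 0.05 by limma-trend.

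**Figure D5:**
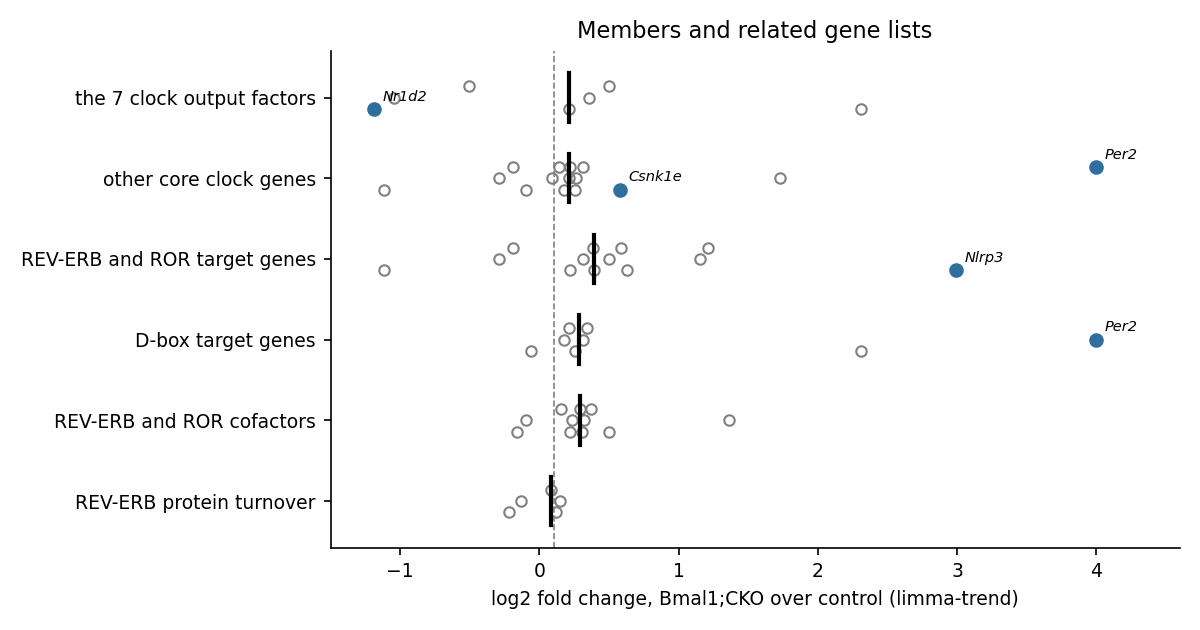
log2 fold changes in Bmal1;CKO over control by limma-trend, with 1 point per tested gene, black bars for the median of each list and a dashed line for the median of all genes tested (0.11). Filled and named points had an unadjusted p under 0.05, namely Nr1d2, Per2, Csnk1e and Nlrp3, and some genes stand in more than 1 list.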

How the data were processed

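RNA was measured in 3 control and 3 Bmal1;CKO libraries. The authors used Trimmomatic, Bowtie on the mm10 (GRCm38) genome and featureCounts, and the deposited table holds a signal, the count divided by a DESeq2 size factor. The authors' columns of fold changes and p-values were not used. Whole reads were recovered by dividing each column by its smallest value (100% whole within 0.01). Genes reaching 10 reads in 3 or more libraries were tested with limma-trend (limma 3.58.1, R 4.3.3) on log2(normalized count + 1), two-sided, with Benjamini-Hochberg adjustment, and 95% intervals came from the same fit. Alternatives used edgeR 4.0.16 and DESeq2 1.42.0 on the recovered reads, limma-voom, other pseudocounts and filters, and each library left out. Limma-trend, edgeR, DESeq2 and limma-voom were run on simulated data in which all genes had the same dispersion. The simulation therefore does not show how they behave at the spread seen here. Limma without the trend, the other pseudocounts and filters, the fits with 1 library left out and the permutation test were not simulated. GENCODE M21 (GRCm38) gave exons and coordinates, and RefSeq the promoters. The genes and lists were chosen with earlier results of these data known. Named beside the 7 genes are those of each list at an unadjusted p under 0.05, or that of smallest p, and the 2 most alike. Thra and Sphk2 were named for their overlap, and Rorb and Xist after their values were seen. Some genes of the lists are not reported here by name. As the cDNA was amplified, the Poisson interval covers counting error alone.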

Additional observations from a re-analysis of the deposited data

How the results depend on the processing

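No paired analysis was possible because the columns number the control libraries 1 to 3 and the Bmal1;CKO libraries 4 to 6, which share no number. Of the 7 clock output factors, 0 reached an FDR of 0.05 in any of the 16 alternatives. In all 16, 6 kept their direction, which for Nr1d2 could not change with 1 library left out. The exception was Tef, whose log2 fold change was -0.10 without control library 2 and 0.83 without control library 3. That of Arntl was -0.49 without control library 1 and 0.029 without control library 2. The number of the 7 with an unadjusted p under 0.05 was 0 with a pseudocount of 10 and 0 to 2 with 1 library left out, with 2 (Nr1d1 and Nfil3) without control library 3 and 0 without control library 2 or any 1 Bmal1;CKO library. Over all genes, the count at an FDR of 0.05 was 61 by limma without the trend, 67 by DESeq2, 1 among genes with at least 1 read in total, 1 where 10 reads were required in each library, and 0 to 6 with 1 library left out, with 6 without control library 1. The causes were not tested. Except for Nr1d1 in control library 1, each of the 7 genes had 98 or more reads in each library, but these come from amplified cDNA and do not give the number of molecules sampled.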
